A study of Mus musculus with 6 samples.

Results

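The genes of the cytosolic ribosomal proteins were followed in Py2T, a cell line from a mouse mammary tumour, after long exposure to hydrogen peroxide (H2O2). Members were chosen by name: each row of the deposited table whose Entrez ID carries a RefSeq protein-coding symbol made of Rpl or Rps and a digit, plus Rplp0, Rplp1, Rplp2 and Rpsa. Symbols of pseudogenes and of the Rps6k kinases were left out. In all, 89 of the 24454 rows qualified. They comprise 46 large-subunit genes, 31 small-subunit genes and 11 paralogs or retrocopies (copies made from a spliced transcript), plus Rps19bp1, which encodes a binding partner of the Rps19 protein and no subunit. The C40 line had been given 40 µM H2O2 daily for 4 months, the I60 line 60 µM on the same schedule, and the PBS control 0 µM, with 2 libraries from each. The treatment field of the labels gives PBS for the control, while the protocol text calls those cells untreated. The design text describes the libraries of a group as biological duplicates, and no label says that they were exposed apart, so p-values measure the spread between libraries. Each group is 1 line, so a difference that arose during long culture cannot be told apart from an effect of H2O2.

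A ribosome joins a small subunit, which reads the mRNA, to a large subunit, which forms the peptide bond, and apart from the stalk proteins Rplp1 and Rplp2 each ribosomal protein is normally present in a single copy. Most ribosomal protein mRNAs begin with a run of pyrimidines, the terminal oligopyrimidine (TOP) motif, through which Larp1 and the mTOR pathway control their translation. Free ribosomal proteins, above all Rpl5 and Rpl11, bind Mdm2, the ubiquitin ligase that degrades Trp53, and so link ribosome assembly to the Trp53 stress response. Mammalian genomes hold many processed pseudogenes of these genes, which makes reads of near-identical sequence hard to assign.

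The libraries held 48113692 to 60260520 reads assigned to genes, so that 1 read equals 0.0166 to 0.0208 CPM, the unit in which a gene's reads are given relative to its library's total. Of 7 epithelial markers, 5 fell in each line (Epcam, Cdh1, Krt7, Cldn7 and Esrp1), while Krt8 stood at 1534 and 1059 CPM in C40, 1707 and 1574 CPM in I60, and 1264 and 1164 CPM in PBS. The summed level of the 7 was 3511 to 3784 CPM in C40, 3091 to 3154 CPM in I60, and 6910 to 7271 CPM in PBS. Of 7 fibroblast markers, 4 passed the filter and 3 were at 0 reads in all 6 libraries. Col3a1, Col1a1 and Pdgfrb rose in each line, Dcn rose in C40, and the list summed to 160.0 to 687 CPM in C40, 413 to 455 CPM in I60, and 0.232 to 0.350 CPM in PBS. Of the other lists, the immune marker Cd68 rose in I60, and the summed endothelial, adipocyte and immune markers reached at most 0.603, 0.0562 and 28.0 CPM in any library. The part of this change of cell state in the values that follow was not tested.

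Ribosomal protein genes took a larger share of the reads in both lines than in the control. They held 2.66% and 3.05% of the reads in the C40 libraries, 2.99% and 3.17% in the I60 libraries, and 1.94% and 2.16% in the PBS libraries. The C40 and I60 libraries overlapped with each other, and all 4 lay above both PBS libraries. The mean share was 1.40 times the PBS mean in C40 and 1.504 times in I60. Counting error was small beside this, with a 95% Wilson interval of at most ±0.00466 percentage points in any library, an interval that covers counting error alone. With 2 libraries a group, an exact permutation test of this single value cannot go below p = 0.33, two-sided, so none was run. In bulk RNA, fewer cells of a kind and less RNA per cell cannot be told apart, and a CPM value is a share of the library, not an amount per cell.

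**Figure D1:**
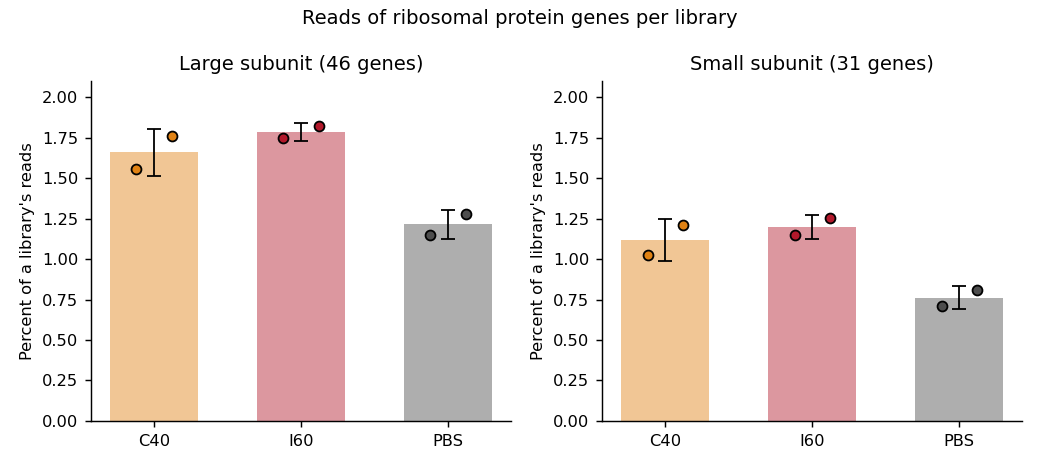
Summed reads of the 46 large-subunit genes (left) and the 31 small-subunit genes (right) as a percent of each library's reads, with bars at the group mean, points at each library and error bars at ±1 SD (n = 2). The 4 libraries of the treated lines lie between 1.56% and 1.82% for the large subunit and between 1.02% and 1.25% for the small subunit, above the PBS libraries in both.

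Both subunits shared in the higher level. Large-subunit genes held 1.56% and 1.76% of reads in C40, 1.75% and 1.82% in I60, and 1.15% and 1.28% in PBS. Small-subunit genes held 1.02% and 1.21% in C40, 1.15% and 1.25% in I60, and 0.712% and 0.811% in PBS. The ratio of means to PBS was 1.37 in C40 and 1.47 in I60 for the large subunit, and 1.47 in C40 and 1.57 in I60 for the small subunit. The summed small-subunit level divided by the summed large-subunit level was 0.658 and 0.686 in C40, 0.656 and 0.687 in I60, and 0.619 and 0.635 in PBS. The treated lines' values did not overlap with those of PBS, and C40 and I60 spanned nearly the same range. The 10 most abundant members held 12536 of the 20490 CPM of all members in PBS on average, and so largely set the sums. They gave 1.43 times the PBS level in C40 and 1.55 times in I60. The 11 paralogs together gave 774 and 769 CPM in C40, 926 and 915 CPM in I60, and 674 and 693 CPM in PBS.

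The start sites of several of these genes are shown here because the pyrimidine run at the start of the mRNA is what classes them with the TOP mRNAs. Shown first are members with a call in each line (Rpl18, Rpl35, Rpl39, Rpl7a, Rps10 and Rps3), followed by the 3 tested members with the lowest I60 value (Rpl5, Rps25 and Rps27l). Each sequence holds 15 bases before and 15 bases from the annotated start, read 5′ to 3′ on the gene's strand from RefSeq promoter sequences of GRCm38.p6. Capitals mark the longest unbroken run of C and T inside the window, and where a gene has several annotated starts the one with the longest run is printed. The windows are chr7:45718056-45718085 for Rpl18, chr2:39005117-39005146 for Rpl35, chrX:37085208-37085237 for Rpl39, chr2:26910792-26910821 for Rpl7a, chr17:27635230-27635259 for Rps10 and chr7:99483695-99483724 for Rps3. Those of the lowest members are chr5:107900513-107900542 for Rpl5, chr9:44407699-44407728 for Rps25 and chr9:66946071-66946100 for Rps27l. Rpl35, Rpl39, Rps10 and Rps3 lie on the minus strand and the others on the plus strand.
Rpl18: tgcgtctcgcaggccgCTCTTTCCCCgccc
Rpl35: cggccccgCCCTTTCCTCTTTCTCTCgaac
Rpl39: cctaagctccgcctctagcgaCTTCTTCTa
Rpl7a: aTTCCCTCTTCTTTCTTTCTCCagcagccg
Rps10: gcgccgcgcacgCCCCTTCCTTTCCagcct
Rps3: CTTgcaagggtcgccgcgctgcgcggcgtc
Rpl5: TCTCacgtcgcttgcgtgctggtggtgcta
Rps25: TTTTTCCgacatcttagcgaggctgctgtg
Rps27l: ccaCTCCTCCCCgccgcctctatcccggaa
Followed past the window edge where it reaches it, the marked run is 21 bases long in Rpl7a, 18 in Rpl35, 13 in Rps10, 10 in Rpl18, 8 in Rpl39 and 3 in Rps3. Among the lowest members it is 14 bases in Rps25, 9 in Rpl5 and 9 in Rps27l, of which 7 bases in Rps25 and 4 in Rpl5 lie inside the window. These lengths fall within the range of the called members shown, whose lower end is the 3 bases of Rps3. The place of the run differs. It ends before the annotated start in Rps25, Rpl5, Rps27l and Rps3, and so lies outside the annotated mRNA. In Rpl35, Rpl7a and Rps10 it spans the start, and in Rpl18 and Rpl39 it lies after the start.

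Of the 89 members, 69 had an entry in the promoter sequences, with 81 annotated starts. A run of at least 8 pyrimidines within the 30-base window was found for 29 of the 69 (42.0%), against 13.9% of all 27025 genes in the same set and 14.8% of the 9215 that were also tested. With runs that touch the window measured at their full length, a setting added after the values were seen, it was found for 33 of the 69 (47.8%), against 20.04% of all genes in the set and 20.7% of those tested. The second motif searched was CCGGAAG on either strand (CTTCCGG on the other), a core bound by ETS-family factors, anywhere in the 300 bases from 250 before to 50 after the start. It was found for 26 of the 69 members (37.7%), against 9.93% of all genes in the set and 21.4% of those tested. The run and the motif can share letters, since CCGGAAG begins with CC and CTTCCGG with CTTCC. Among members with a call in I60, 10 of 22 had the run and 10 of 22 the second motif, and among tested members without that call 18 of 42 had the run and 15 of 42 the motif. At full length the run was found for 10 of the 22 and 22 of the 42. The counts of the run, in the window and at full length, include runs that end before the annotated start. Both kinds of member held the motif, as in the 150 bases upstream of 2 called genes and 1 low member, printed 5′ to 3′ with the motif in capitals. They cover chr2:39005132-39005281 (Rpl35, minus strand), chr17:27635245-27635394 (Rps10, minus strand) and chr9:44407564-44407713 (Rps25, plus strand).
Rpl35: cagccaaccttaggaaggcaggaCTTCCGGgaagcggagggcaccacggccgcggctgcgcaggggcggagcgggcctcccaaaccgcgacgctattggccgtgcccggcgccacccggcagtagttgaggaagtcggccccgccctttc
Rps10: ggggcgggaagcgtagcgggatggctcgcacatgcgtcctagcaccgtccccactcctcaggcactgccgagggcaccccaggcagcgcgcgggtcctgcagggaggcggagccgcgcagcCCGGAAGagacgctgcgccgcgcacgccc
Rps25: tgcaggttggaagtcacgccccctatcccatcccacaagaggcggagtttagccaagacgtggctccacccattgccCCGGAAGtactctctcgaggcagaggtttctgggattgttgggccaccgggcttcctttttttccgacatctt
A match is a stretch of letters and no measured binding site, and no match says only that these letters are not in the window.

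In C40 against PBS, 9 of the 83 tested members rose and 0 fell, while the whole group leaned upward by a small amount. A call is a limma adjusted p below 0.05, and the fold changes are on the log2(CPM + 0.5) scale, which understates the change of low genes. The 9 members are 10.8% of those tested, near the 11.2% of all 11524 genes called higher, so the count is nothing particular to them, and 9.02% of all genes were called lower. The median log2 fold change was 0.34 over the members and -0.02 over all genes tested, and 73 of 83 members had a positive value. The other 6 members were not tested (Rps29, Rps27rt, Rpl3l, Rps23rg1, Rpl10l and Rpl39l). With no filter on low values, the median over the 87 members above 0 reads was 0.33. Libraries of the 2 groups did not overlap, with C40 higher, for 56 members (67.5%, against 30.9% of all genes) and with C40 lower for 6 (31.8% of all genes). In the lower direction 2 members had an unadjusted p under 0.05 in limma, edgeR called 0 and DESeq2 called 1. The calls fell on 5 of 46 large-subunit genes, with a median of 0.30, and on 4 of 30 tested small-subunit genes, with a median of 0.42. The count rests on single libraries: it was 0 without PBS replicate 1, 1 without PBS replicate 2, 3 without C40 replicate 2, 2 without I60 replicate 1, 3 without I60 replicate 2 and 17 without C40 replicate 1. With the replicate number as a block, 14 members were called, 13 higher and 1 lower.

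**Figure D2:**
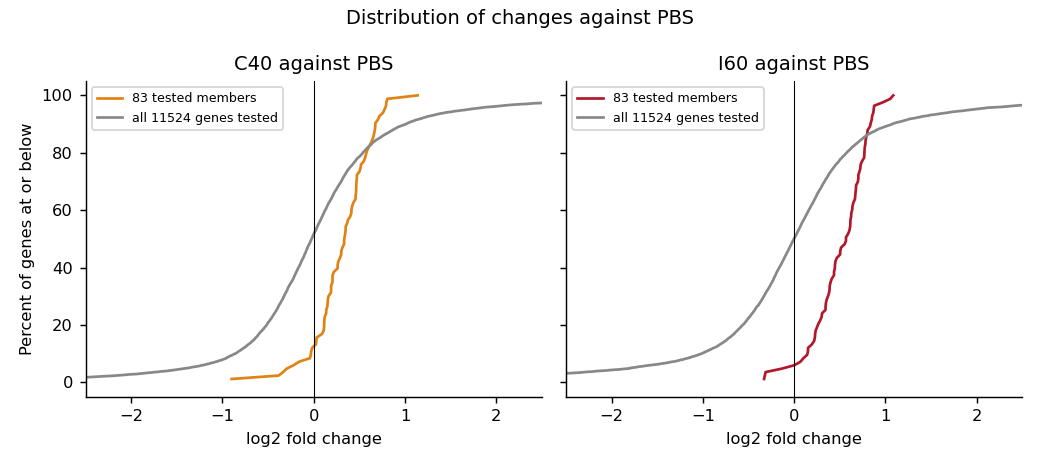
Cumulative percent of genes (y axis) at or below each log2 fold change against PBS (x axis) for the 83 tested members (coloured) and all 11524 genes tested (grey), with C40 left and I60 right. The members' curves cross 50% at 0.34 in C40 and 0.57 in I60 and are steeper than the grey curves, which cross it near 0 and reach further in both directions.

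Rps14, a protein of the small-subunit platform whose human gene is lost in a form of myelodysplastic syndrome, had the largest rise in C40 among the members. It stood at 689 and 881 CPM in C40, against 329 and 380.1 CPM in PBS. The groups did not overlap, and the log2 fold change was 1.14 (SE 0.18, limma adjusted p = 0.00592), or 2.20-fold. In I60 it reached 666 and 724 CPM, which lies within the C40 range at its upper library and below it at the other. The gene (Entrez 20044) lies at chr18:60774596-60778546. Rps10, at the small-subunit beak, had 156 and 191 CPM in C40 and 87.9 and 112 CPM in PBS (log2 fold change 0.79, SE 0.19, limma adjusted p = 0.0266). Each C40 library lay above either PBS library for Rps10.

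Rps3 lines the channel where mRNA enters the small subunit and, in human cells, has also been tied to DNA repair. It had 1913 and 2642 CPM in C40 and 1199 and 1406 CPM in PBS, the widest gap between C40 replicates among the called members in absolute terms (log2 fold change 0.79, SE 0.22, limma adjusted p = 0.0459). In the large subunit, Rpl35 and Rpl39 sit at the exit of the peptide tunnel, where the signal recognition particle docks. Rpl35 had 123 and 129 CPM in C40 and 70.7 and 84.5 CPM in PBS (log2 fold change 0.70, limma adjusted p = 0.0244). Rpl39 had 98.0 and 110.2 CPM in C40 and 66.6 and 63.4 CPM in PBS (log2 fold change 0.67, limma adjusted p = 0.0324). Rpl18 had 264 and 338 CPM in C40 and 163 and 191 CPM in PBS (log2 fold change 0.76, limma adjusted p = 0.0273). No C40 library overlapped with PBS for any of these genes. Rpl7a had 186 and 198 CPM in C40 and 122 and 122 CPM in PBS, with a log2 fold change of 0.65 (limma adjusted p = 0.0206), and its transcript shares 81-base stretches with 54 annotated pseudogenes.

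Rpl7, a large-subunit protein that contacts ribosomal RNA, was called in C40 and not in I60. It had 846 and 869 CPM in C40, 570.3 and 692 CPM in I60, and 533 and 541 CPM in PBS. The log2 fold change was 0.67 for C40 and 0.23 for I60 (limma adjusted p = 0.029 and 0.35). The difference between the lines themselves was -0.45 for I60 against C40 (limma adjusted p = 0.167), so the lines are not shown to differ for this gene. Rpl13a, Rpl32 and Rps9 were among those that joined the calls in C40 with the replicate block (limma adjusted p = 0.0279, 0.0439 and 0.0318), against 0.057, 0.082 and 0.0717 without it. All 3 had both C40 libraries above both PBS libraries.

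In I60 against PBS, 30 of the 83 tested members rose and 0 fell. The 30 are 36.1% of those tested, against 13.9% of all genes called higher and 13.1% called lower. The median log2 fold change was 0.57, or 1.48-fold, over the members and -0.0022 over all genes tested, and 79 of 83 members had a positive value. Over the 87 members above 0 reads it was also 0.57. For 69 members (83.1%, against 35.5% of all genes) both I60 libraries lay above both PBS libraries, and for 4 they lay below (35.2% of all genes). In the lower direction 0 members had an unadjusted p under 0.05 in limma, and edgeR and DESeq2 each called 0. The calls comprise 15 of 30 tested small-subunit genes, with a median of 0.64, 13 of 46 large-subunit genes, with a median of 0.48, and 2 of 6 tested paralogs. C40 and I60 were set against the same PBS libraries, so their counts are not independent. The I60 count was 0 without PBS replicate 1, 0 without I60 replicate 2, 4 without PBS replicate 2, 5 without I60 replicate 1, 38 without C40 replicate 1 and 38 without C40 replicate 2, while the median stayed between 0.53 and 0.59 in these 6 fits.

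**Figure D3:**
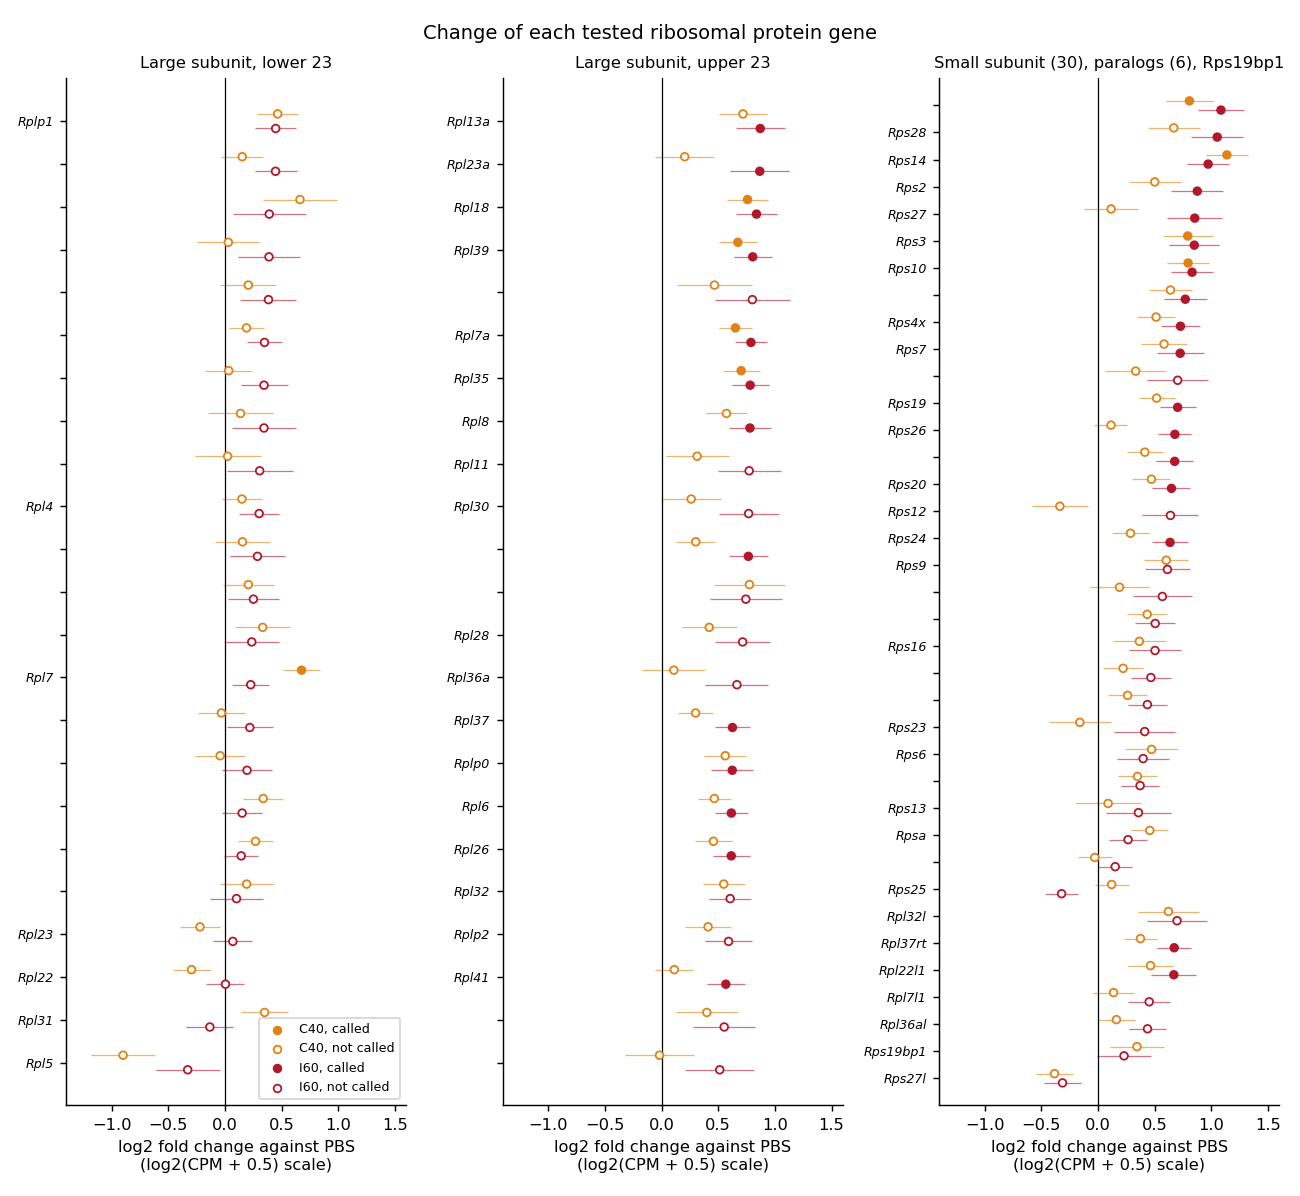
Log2 fold change against PBS (x axis, log2(CPM + 0.5) scale) of each of the 83 tested members (rows), with C40 in orange and I60 in red, filled where limma called the change and with bars of ±1 SE. Genes described in the text are labelled. Most points lie right of 0. Rps28 and Rps14 reach 1.05 and 0.97 in I60, and Rpl5, Rps25 and Rps27l lie at -0.33, -0.32 and -0.31.

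Small-subunit proteins headed the list in I60. Rps28, next to the mRNA exit channel, had 10.5 and 10.8 CPM in I60 and 4.41 and 5.41 CPM in PBS (log2 fold change 1.05, SE 0.23, limma adjusted p = 0.0154). Rps14 was 1.96-fold higher (limma adjusted p = 0.00827). The I60 libraries of both genes lay above both PBS libraries. Rps2, beside Rps3 at the mRNA entry channel, had 10.2 and 9.52 CPM in I60 and 5.65 and 4.68 CPM in PBS (log2 fold change 0.88, limma adjusted p = 0.0301), and its transcript shares stretches with 46 pseudogenes. Rps3 had 2198 and 2492 CPM in I60 and 1199 and 1406 CPM in PBS (log2 fold change 0.85, limma adjusted p = 0.0288). Rps10 had 176 and 178 CPM in I60 and 87.9 and 112 CPM in PBS (log2 fold change 0.83, limma adjusted p = 0.0175). Groups did not overlap for any of the 3. Rps27 was listed at 3.58 and 3.21 CPM in I60 and 1.803 and 1.51 CPM in PBS (log2 fold change 0.85, limma adjusted p = 0.039), but only 1.51% of its 81-base stretches occur in no other gene.

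The other small-subunit calls in I60 were 1.55-fold to 1.71-fold higher. Rps19, Rps24 and Rps26, each mutated in some human Diamond-Blackfan anaemia, were 1.63-fold, 1.55-fold and 1.6-fold higher (limma adjusted p = 0.0174, 0.0268 and 0.014). Rps26, which touches the mRNA at its exit, had 403 and 412 CPM in I60, above 287 and 265 CPM in C40, with 248 and 262 CPM in PBS. Rps4x, which is X-linked, Rps7 and Rps20 were also called, at 1.57-fold to 1.66-fold. Rps6, the classic substrate of the S6 kinases, had 13.1 and 16.0 CPM in I60 and 11.9 and 9.97 CPM in PBS and was not called (log2 fold change 0.40, limma adjusted p = 0.25). Rpsa, also known as the laminin receptor precursor, had 370 and 372 CPM in I60 and 282 and 337 CPM in PBS (log2 fold change 0.27, limma adjusted p = 0.278).

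In the large subunit, Rpl13a, which in human cells also silences inflammatory mRNAs as part of the GAIT complex, had the largest rise in I60. It had 1956 and 2087 CPM in I60 and 1017 and 1199.8 CPM in PBS, a log2 fold change of 0.87 (SE 0.22, limma adjusted p = 0.0242). Rpl23a had 3.11 and 2.30 CPM in I60 and 1.30 and 1.19 CPM in PBS (log2 fold change 0.87, limma adjusted p = 0.0483), and lost its call with the replicate block (limma adjusted p = 0.0572). Both I60 libraries were above both PBS libraries for each gene. Rpl8, close to the peptidyl transferase centre and the second most abundant member per length, had 2637 and 2431 CPM in I60 and 1373 and 1583 CPM in PBS (log2 fold change 0.78, limma adjusted p = 0.0197). Rplp0, the base of the stalk that recruits elongation factors, had 3192 and 3325 CPM in I60 and 2005 and 2228 CPM in PBS (log2 fold change 0.62, limma adjusted p = 0.0473). Its stalk partners Rplp1 and Rplp2 were 1.36-fold and 1.51-fold higher without a call (limma adjusted p = 0.114 and 0.075), and Rplp2 passed with the block (0.0401), as did Rpl30, Rpl32 and Rps9 (0.0485, 0.0266 and 0.025). Rpl18, Rpl35, Rpl39, Rpl7a, Rpl6, Rpl26, Rpl37 and Rpl41 were also called, at 1.48-fold to 1.79-fold.

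Between the lines, 0 of 83 members were called by limma in I60 against C40, where 3.51% of all genes were called higher and 5.73% lower. At an unadjusted p under 0.05 there were 8 members, 2 of them lower in I60, and edgeR called 0 and DESeq2 called 2. The median log2 fold change was 0.18 over the members and 0.02 over all genes, and 69 members had a positive value. Rps12 had 12.04 and 12.1 CPM in I60, against 5.47 and 6.33 CPM in C40, the widest such difference among the members (log2 fold change 0.98, SE 0.25, limma adjusted p = 0.0572). Its PBS libraries lay between the lines at 8.73 and 6.54 CPM. In Drosophila, Rps12 takes part in the sensing of ribosomal protein mutants during cell competition. Rps26 was next to passing, with a log2 fold change of 0.56 (limma adjusted p = 0.0614).

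A few members departed from the common direction. Rpl5, which joins Rpl11 and a small ribosomal RNA in the complex that binds Mdm2, had 9.54 and 7.32 CPM in C40, 12.5 and 12.8 CPM in I60, and 19.9 and 12.9 CPM in PBS. Both C40 libraries lay below both PBS libraries, and the I60 libraries lay just below the lower PBS library. The log2 fold change was -0.90 in C40 (SE 0.28, limma adjusted p = 0.0647, and 0.0439 with the replicate block) and -0.33 in I60 (limma adjusted p = 0.429). Rpl11 was listed at 1.31 and 1.03 CPM in C40, 2.23 and 1.42 CPM in I60, and 0.998 and 0.697 CPM in PBS, with 39.3% of its stretches unique, and was not called (limma adjusted p = 0.458 and 0.0833). Rps25, which viral internal ribosome entry sites need, had 156 and 162 CPM in C40, 113 and 120.4 CPM in I60, and 141 and 151 CPM in PBS. Its I60 libraries were the lowest of the 6 and its C40 libraries the highest, with -0.32 in I60 (limma adjusted p = 0.157). Rpl22, which in lymphocytes is needed for T cell development, had 164 and 193 CPM in C40, 201 and 239 CPM in I60, and 220.3 and 217 CPM in PBS. Rpl31 had 29.3 and 24.6 CPM in C40, 18.5 and 19.7 CPM in I60, and 21.98 and 20.1 CPM in PBS, so the lines lay on opposite sides of the control, without a call in either. Rpl23, another Mdm2 binder, and Rpl4, which lines the peptide tunnel, had log2 fold changes of 0.07 and 0.30 in I60 (limma adjusted p = 0.8 and 0.258).

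Among the paralogs, Rpl22l1 held a larger share of its pair in both lines than in the control. The Rpl22l1 protein can take the place of Rpl22 in the ribosome. Per length, Rpl22l1 made up 31.8% and 30.7% of the Rpl22 pair in C40, 28.3% and 31.4% in I60, and 21.3% and 20.9% in PBS. The treated libraries did not overlap with PBS. The 95% Wilson intervals, which reached 20.3% to 21.9% in PBS, began at 27.6% in the treated lines. These intervals cover counting error alone and not the spread between libraries. Those of the I60 libraries did not overlap with each other either. Rpl22l1 itself had 89.2 and 99.4 CPM in C40, 92.3 and 128 CPM in I60, and 69.4 and 66.9 CPM in PBS, with log2 fold changes of 0.46 (limma adjusted p = 0.147) for C40 and 0.67 (limma adjusted p = 0.047) for I60. Rpl22 had log2 fold changes of -0.30 for C40 and 0.00 for I60 (limma adjusted p = 0.252 and 0.99).

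Rps27l, a target of Trp53 and paralog of Rps27, had 131 and 114 CPM in C40, 136 and 122 CPM in I60, and 154 and 167 CPM in PBS. Every treated library lay below both PBS libraries, with log2 fold changes of -0.38 for C40 and -0.31 for I60 (limma adjusted p = 0.14 and 0.199), neither called. It made up 96.3% to 98.7% of the Rps27 pair per length in all 6 libraries, but nearly all of the Rps27 transcript occurs elsewhere, so the share of Rps27 is uncertain. Rps27rt, a retrocopy of Rps27 with 27 to 63 reads, did not pass the filter. Rpl7l1, a nucleolar protein of ribosome assembly, made up 8.12% and 8.27% of the Rpl7 pair in C40, 16.1% and 10.7% in I60, and 12.2% and 10.8% in PBS. The C40 shares were the lowest of the 6, beside the rise of Rpl7 in C40, and Rpl7l1 had 167 and 176 CPM in C40, 245 and 186 CPM in I60, and 165 and 147 CPM in PBS, without a call.

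Rpl37rt and Rpl32l are retrocopies that RefSeq lists as protein coding and GENCODE as pseudogenes. Rpl37rt had 369 and 392 CPM in I60 and 226 and 252 CPM in PBS (log2 fold change 0.67, limma adjusted p = 0.0163). Its parent Rpl37 had 254 and 277 CPM in I60 and 161 and 183 CPM in PBS (log2 fold change 0.63, limma adjusted p = 0.0242). The retrocopy made up 62.7% to 64.2% of the pair per length in all 6 libraries, and the 2 transcripts share sequence, so how their reads were split is uncertain. Rpl32l made up 2.40% to 2.92% of the Rpl32 pair and Rpl36al 97.4% to 98.7% of the Rpl36a pair, with 39.2% and 15.6% of the stretches of Rpl36al and Rpl36a found in no other gene. The tissue-restricted paralogs were nearly absent. Rpl10l and Rpl39l, known from the testis, had 0 reads in all 6 libraries, below a floor of 3 reads or 0.0624 CPM at most. Rpl3l, known from heart and skeletal muscle, had 0 to 4 reads, and Rps23rg1, a retrocopy of Rps23, had 0 or 1 read.

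Listed levels differed widely among the subunit genes. Of the 77 subunit genes, 15 averaged at least 500 CPM over the 6 libraries, 26 averaged 50 to 500 CPM, 22 averaged 5 to 50 CPM and 14 stayed under 5 CPM. Per kb of transcript, the 3 highest were Rplp1, Rpl8 and Rplp0, at 2992, 2432 and 2087 CPM per kb on average. Rplp1, a stalk protein, had 3109 and 3508 CPM per kb in C40, 3291 and 3234 in I60, and 2178 and 2631 in PBS. Rpl8 had 2433 and 2730 CPM per kb in C40, 3099 and 2856 in I60, and 1614 and 1860.0 in PBS. At the other end, Rpl28, Rps23, Rps29, Rps13 and Rpl11 averaged 0.981, 1.22, 1.28, 1.42 and 1.54 CPM per kb. Rps29 had 21 to 35 reads in a library and did not pass the filter of 1 CPM in 2 libraries.

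The level moved with how much of a transcript is unique. The libraries were read as 81-base single reads, so each gene's main GENCODE M21 transcript was divided into all its 81-base stretches and these were sought in the transcripts of every other gene. Of the 77 subunit genes, 73 share at least 1 such stretch with an annotated pseudogene. The median level was 8.49 CPM per kb for 14 genes with under 25% unique stretches, 55.7 for 16 genes with 25% to 50%, 37.5 for 27 genes with 50% to 75%, 283 for 10 genes with 75% to 90%, and 894 for 10 genes with 90% or more. Over the 77 genes of these same libraries, Spearman's rho was 0.54 with the unique percent and -0.49 with the number of pseudogenes sharing a stretch. The sources used here do not say how reads that match several places were counted, and of 324 RefSeq pseudogenes with an Rpl or Rps symbol, 6 have a row in the table. Rpl28, Rps29 and Rps16 were low although 67.4%, 70.6% and 64.9% of their stretches are unique, and Rpl13a was high at 43.95%.

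**Figure D4:**
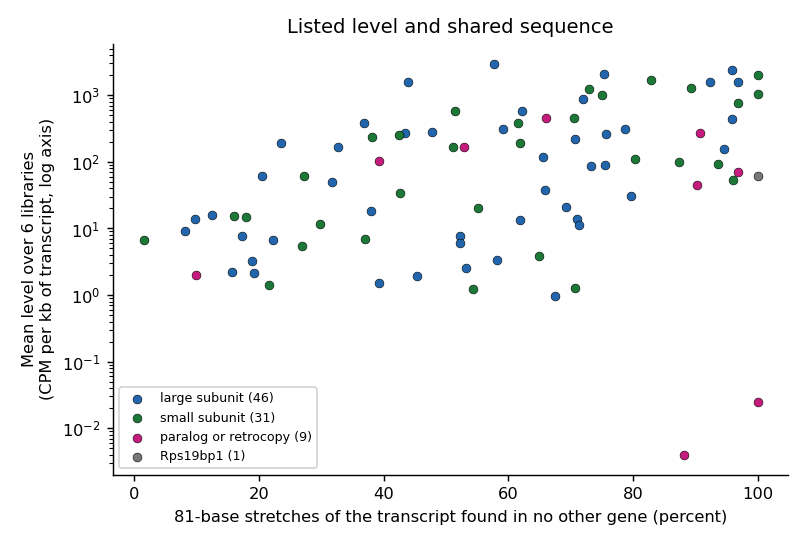
Mean level over the 6 libraries (y axis, CPM per kb of transcript, log axis) against the percent of a gene's 81-base stretches found in no other gene (x axis), 1 point per member, with the 2 members at 0 reads not drawn. Subunit genes with 90% or more unique stretches have a median of 894 CPM per kb, and those under 25% have a median of 8.49 CPM per kb.

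Calls were found among genes with much and with little unique sequence. In I60, 20 of 52 tested members with at least 50% unique stretches were called (38.5%), with a median of 0.54. Of the 31 with fewer, 10 were called (32.3%), with a median of 0.62, where 13.9% of all genes were called higher. In C40 the numbers were 6 of 52 (11.5%) with a median of 0.35 and 3 of 31 (9.68%) with a median of 0.33. Both shares are near the 11.2% of all genes called higher, so the C40 counts are nothing particular to either set. Summed over the 57 members with at least 50% unique stretches, the level was 1.38 times PBS in C40 and 1.49 times in I60, and over the other 32 it was 1.48 times in C40 and 1.62 times in I60. Rps3, with 100% unique stretches and 0 pseudogenes, was 1.802-fold higher in I60. Levels between members are therefore uncertain where sequence is shared, and each gene's change is measured over whatever reads it was given in all libraries.

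Members were also set against the genes around them. Of the tested members, 76 had at least 5 tested neighbours within 1 Mb. The member's log2 fold change exceeded its neighbours' median for 70 of the 76 in I60 and for 66 in C40. The median difference was 0.45 in I60 and 0.29 in C40, while the median over the neighbour medians was 0.06 in I60 and 0.01 in C40. The 16 neighbours of Rps14 had a median of 0.75 in I60, with 9 of them called higher, beside its own 0.97. Rps25 lay among 27 neighbours with a median of -0.83, 17 of them called lower, beside its own -0.32. Rpl7 was 0.23 in I60, with 8 neighbours at a median of -0.78, and 0.67 in C40, with the neighbours at -0.17. The part of these neighbourhoods in the members' values was not tested.

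**Figure D5:**
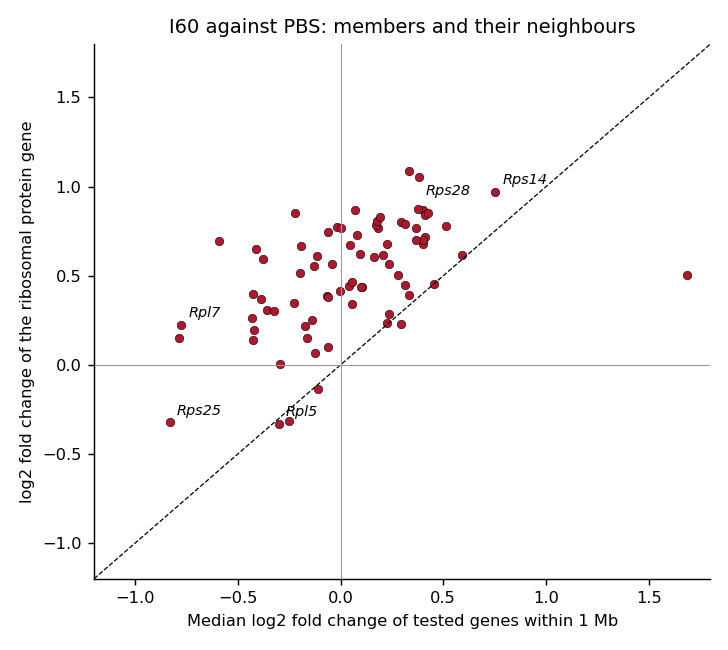
Log2 fold change in I60 against PBS of each of 76 members (y axis) against the median of its tested neighbours within 1 Mb (x axis), with the dashed line at equality. The 70 points above the line are members whose change exceeded that of their neighbours, and Rps14 lies at 0.97 against 0.75.

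Genes of the same pathway that the symbol rule leaves out were read from lists. Of the 3 ribosomal proteins with other names, Fau, a ubiquitin-like fusion that releases a small-subunit protein, rose in both lines. It had 16.4 and 20.7 CPM in C40, 25.3 and 22.1 CPM in I60, and 8.16 and 9.49 CPM in PBS, with log2 fold changes of 1.02 for C40 and 1.38 for I60 (limma adjusted p = 0.0233 and 0.00519). Rack1, a scaffold on the small subunit, had 2883 and 3824 CPM in C40, 3229 and 3586 CPM in I60, and 1922 and 2229 CPM in PBS (limma adjusted p = 0.0684 in C40, 0.0365 there with the replicate block, and 0.0495 in I60). Among 18 translation factors and other TOP mRNAs, 3 rose in C40 and 5 in I60, with medians of 0.30 and 0.50. Over all genes tested, 11.2% were called higher in C40 and 13.9% in I60. Eef1g, a subunit of the elongation factor that reloads Eef1a, was 2.25-fold higher in C40 and 2.05-fold in I60 (limma adjusted p = 0.0055 and 0.00655). Tpt1 and Eif3k rose in both, and Eef1b2 and Pabpc1 in I60. Eef1a1 and Eef2, the most abundant of the list, were not called (limma adjusted p = 0.34 and 0.298 for Eef1a1, 0.195 and 0.167 for Eef2).

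The 24 ribosome assembly genes had median log2 fold changes of 0.12 in C40 and 0.33 in I60. The single call against PBS was Fbl in I60, the methyltransferase of box C/D ribonucleoproteins, with 34.7 and 27.3 CPM in I60 and 16.6 and 17.6 CPM in PBS (limma adjusted p = 0.0266). Rrs1, an assembly factor of the large subunit, had 106 and 74.2 CPM in I60, against 156 and 230.2 CPM in C40 (log2 fold change -1.09, limma adjusted p = 0.0425). Of 8 non-coding hosts of small nucleolar RNAs, the single call against PBS was Snhg8, higher in I60 (limma adjusted p = 0.00606). Beside these counts, 11.2% of all genes tested were called higher in C40 and 13.9% in I60. C40 replicate 2 stood far above C40 replicate 1 for Snhg12 (230.5 CPM in C40 replicate 2 and 31.2 in replicate 1, with 24.9 and 28.8 CPM in PBS), and likewise for Myc, a driver of ribosome genes, at 3203 and 376 CPM with 718 and 726 CPM in PBS. For the members the same pair of libraries differed by a median of 0.13 on the log2 scale, against 0.05 between the I60 libraries and 0.06 between the PBS libraries. The part of this library in the C40 values was not tested beyond leaving it out, which left 3 calls and a median of 0.28.

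Of 14 tested regulators, 2 rose and 1 fell in each line. Over all genes tested, 11.2% were called higher and 9.02% lower in C40, and 13.9% and 13.1% in I60. The regulator counts are therefore not read as a result about the list. Mdm2 had 202 and 220.3 CPM in C40, 242 and 259 CPM in I60, and 3500.3 and 2598 CPM in PBS, which is 14.3-fold and 12.02-fold lower (limma adjusted p = 6.1e-05 and 2.57e-05). Trp53 was 1.88-fold and 2.06-fold higher (limma adjusted p = 0.0105 and 0.00428). Rps6kb2, a kinase of Rps6, was 1.74-fold and 1.66-fold higher (limma adjusted p = 0.0324 and 0.0344), while Rps6kb1 was 1.85-fold and 1.71-fold lower and passed only with the replicate block (limma adjusted p = 0.0512 and 0.065 without it, 0.0371 and 0.0495 with it). Larp1 and Mtor were not called. The mitochondrial ribosomal proteins, the counterpart in the organelle, had 4 of 76 tested genes higher and 2 lower in C40, and 7 higher and 1 lower in I60. These counts lie below the shares of all genes given above, and the medians were 0.07 and 0.16. The cytosolic members' medians were 0.34 and 0.57, and the difference between the groups of genes was not tested.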

How the data were processed

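Total RNA was depleted of ribosomal RNA and sequenced as single reads, per the labels' protocols, in 6 libraries, 2 each of C40, I60 and PBS. STAR and the build mm10 were used, per the submitters' processing notes. The sources used here do not name the counting program, gene annotation or strand setting, so reads of overlapping or antisense genes cannot be told apart. The deposited values are CPM per Entrez gene, as the authors computed them. Dividing each by its library's smallest step gave whole reads for 100% of values (tolerance 0.01), which served the tools that need counts.

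Symbols came from RefSeq (GRCm38.p6, also named mm10), which matched 24374 rows. The members and lists were chosen with earlier results of these data known. The 11524 genes that reached 1 CPM in 2 or more libraries, 83 members among them, were tested with limma 3.58.1 in R 4.3.3 on log2(CPM + 0.5) with an intensity trend, in 1 model of the 3 groups with 3 residual degrees of freedom, two-sided, with Benjamini-Hochberg adjustment over all genes tested. The test was also run on simulated counts. These had the same spread setting for every gene and no shared deviation by replicate number, a simpler case than these data, so the run does not give the error rate here. Alternatives were a pseudocount of 0.1 or 1, no filter, a minimum of 5 CPM, TMM scaling, edgeR 4.0.16, DESeq2 1.42.0, the 4 libraries of a comparison alone, the replicate block and leaving out each library. Libraries of the same replicate number deviated together across genes (r = 0.44 for C40 and I60, 0.15 for C40 and PBS and 0.11 for I60 and PBS). The numbers were taken as pairs in the replicate block only. The main model, which gave the p-values unless the block is named, leaves this pairing out. Any member could be named. Members called were named in order of fold, up to 10 a direction in full, with the 4 most abundant per kb, each paralog with its parent, and the listed genes. Some genes that this rule names are counted in the totals and not reported here. The pairs of Rpl32l, Rpl37rt and Rps23rg1 were added after their values were seen.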

Additional observations from a re-analysis of the deposited data

Results flagged for a closer look

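For 4 members both C40 libraries lay on the other side of both PBS libraries from the I60 libraries. The difference between the lines was tested by limma in I60 against C40, and none of the 4 passed. It was -0.48 on the log2 scale for Rpl31 (adjusted p = 0.235), 0.98 for Rps12 (adjusted p = 0.0572), -0.44 for Rps25 (adjusted p = 0.138) and 0.18 for Rps3a1 (adjusted p = 0.563). Rps3a1 had 238 and 238 CPM in C40, 249.8 and 291 CPM in I60, and 242 and 243 CPM in PBS, so its lines differ from the control by little.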

How the results depend on the processing

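No member's call or median changed direction under any alternative. For C40 against PBS the main count of 9 called members became 2 with the 4 libraries alone, 14 with the replicate block and 20 with DESeq2 (19 higher, 1 lower), stayed within 7 to 9 under the other settings, and ran from 0 to 17 when 1 library was left out. Its median of 0.34 became 0.39 with a minimum of 5 CPM, and 0.28 to 0.40 with 1 library left out. For I60 against PBS the count of 30 was 20 to 38 under all settings that kept the 6 libraries or the 4 of the comparison, and 0 to 38 with 1 library left out. For I60 against C40 the count of 0 became 1 with TMM scaling and 2 with DESeq2, was 0 to 1 with 1 library left out, and the median was 0.13 to 0.26. Of the 30 I60 calls, 19 remained with no filter on low values and 29 with the replicate block, and of the 9 C40 calls 9 remained with the block, which changed no call of a member beyond those named above and 1 not reported here. Without division by length, Rpl22l1 made up 34.6% of its pair in C40, 33.2% in I60 and 23.8% in PBS. Leaving out a library leaves its group with 1 sample, which is then assumed to vary like the others. Why calls were lost was not tested. The spread rests on 3 residual degrees of freedom, and members under 5 CPM carry more counting error.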
